A study of Mus musculus with 9 samples.

Results

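The 9 genes described here, *Prph2*, *Rom1*, *Prom1*, *Cdhr1*, *Rp1*, *Rp1l1*, *Impg1*, *Impg2* and *Tulp1*, encode proteins that build the photoreceptor outer segment, hold its discs in order or fill the space around it. They were taken by symbol from the 25239 gene names in the tables, each filled a single row in every library, and all 9 passed the filter on low values that left 15198 genes for testing. The libraries were made from whole retinas of C57BL/6J mice at postnatal day 42 (P42), with a pair of retinas in each library. There were 3 libraries of wild-type retinas (+/+), 3 of retinas heterozygous for *Rbpms*-CreERT2 (Cre/+) and 3 of homozygous retinas (Cre/Cre). In the knock-in allele, a P2A-CreERT2 cassette, which encodes a tamoxifen-inducible Cre recombinase after a self-cleaving peptide, was joined in frame to the end of the coding sequence of *Rbpms*. *Rbpms* is a marker of retinal ganglion cells, whereas photoreceptors make the 9 transcripts described here. The labels name no tamoxifen treatment for these retinas. The question put to the 9 genes was whether transcripts of the outer segment differed between retinas with 0, 1 and 2 knock-in alleles.

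The outer segment is a modified cilium packed with membrane discs, which are added at its base and shed at its tip. Peripherin-2, the product of *Prph2*, and its relative ROM1 are tetraspanins that assemble into complexes at the disc rim and hold its curvature. Prominin-1, from *Prom1*, and the photoreceptor cadherin CDHR1 lie at the base, where new discs evaginate. RP1 and RP1L1 carry doublecortin domains and bind the microtubules of the axoneme that runs along the discs. IMPG1 and IMPG2 are proteoglycans of the interphotoreceptor matrix, between the photoreceptors and the pigment epithelium, and IMPG2 is anchored in the membrane. TULP1 takes part in the transport of proteins from the inner to the outer segment.

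All positions are in mm10. *Prph2* lies on chromosome 17 from 46910478 to 46924933 on the plus strand, and *Tulp1* on the same chromosome from 28351515 to 28365216 on the minus strand. *Rom1* is the most compact of the set, on chromosome 19 from 8927382 to 8929356 (minus strand). *Prom1* is on chromosome 5 from 43993622 to 44101736 (minus) and *Cdhr1* on chromosome 14 from 37077849 to 37098347 (minus). *Rp1* is on chromosome 1 from 4119866 to 4409241 (minus) and *Rp1l1* on chromosome 14 from 63992431 to 64033506 (plus). *Impg1* is on chromosome 9 from 80313330 to 80465438 (minus) and *Impg2* on chromosome 16 from 56204313 to 56273753 (plus). In GENCODE's annotation of the same assembly, *Prph2* and *Rom1* each have 3 exons in their longest coding transcript, with 346 and 351 codons before the stop. The axonemal genes have long open reading frames in few exons, with 2095 codons in 4 exons for *Rp1* and 1859 codons in 4 exons for *Rp1l1*. *Prom1* has 28 exons, *Impg2* 20, *Impg1* and *Cdhr1* 17 each, and *Tulp1* 15.

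RefSeq promoters, from 250 bases before to 50 bases after an annotated start (GRCm38.p6), were given for 7 of the 9 genes, in 8 entries since *Prom1* has 2. *Rp1* and *Rp1l1* had no entry. They were searched for TAATC on both strands (GATTA on the printed strand), the core of the sequence that the photoreceptor homeodomain factors CRX and OTX2 bind. Of all 32851 promoters of this length, 22.0% held at least 1 match, and 5 of the 8 entries did. *Prph2* held 3 matches, 61 and 30 bases before and 33 bases after the start, and 0.658% of all promoters held 3 or more. *Impg1* held 2, at 68 and 42 bases before the start. *Impg2* held 1 at 57 bases before and *Tulp1* 1 at 11 bases after the start. *Rom1*, *Cdhr1* and the upstream start of *Prom1* held none, and the downstream start of *Prom1* held 1 at 28 bases before. No entry held the longer TAATCC, which 7.06% of all promoters held. The 5 promoters printed here belong to the rim pair *Prph2* and *Rom1*, to *Prom1* and *Impg1*, whose ratio was the steadiest of all pairs as described later, and to *Impg2*, the other matrix gene. They run 5′ to 3′ on the strand of the gene, with each match in capitals.
*Prph2*, chr17:46910228-46910527, plus strand: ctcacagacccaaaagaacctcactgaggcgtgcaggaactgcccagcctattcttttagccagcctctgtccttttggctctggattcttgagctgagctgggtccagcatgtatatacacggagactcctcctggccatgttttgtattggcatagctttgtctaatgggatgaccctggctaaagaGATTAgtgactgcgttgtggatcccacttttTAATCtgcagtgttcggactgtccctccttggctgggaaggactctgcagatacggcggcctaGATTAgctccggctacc
*Rom1*, chr19:8929307-8929606, minus strand: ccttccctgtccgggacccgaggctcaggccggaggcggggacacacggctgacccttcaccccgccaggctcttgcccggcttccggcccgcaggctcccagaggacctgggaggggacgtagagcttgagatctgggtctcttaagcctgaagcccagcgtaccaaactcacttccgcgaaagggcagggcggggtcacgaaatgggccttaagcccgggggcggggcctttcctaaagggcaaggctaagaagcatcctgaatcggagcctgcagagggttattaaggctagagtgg
*Prom1*, upstream start, chr5:44101687-44101986, minus strand: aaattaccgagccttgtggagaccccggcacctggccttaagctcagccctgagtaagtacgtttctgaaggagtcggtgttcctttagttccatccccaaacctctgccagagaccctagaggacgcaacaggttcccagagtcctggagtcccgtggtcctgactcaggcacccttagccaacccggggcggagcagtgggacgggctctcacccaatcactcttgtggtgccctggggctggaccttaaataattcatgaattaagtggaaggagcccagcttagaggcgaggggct
*Impg1*, chr9:80465389-80465688, minus strand: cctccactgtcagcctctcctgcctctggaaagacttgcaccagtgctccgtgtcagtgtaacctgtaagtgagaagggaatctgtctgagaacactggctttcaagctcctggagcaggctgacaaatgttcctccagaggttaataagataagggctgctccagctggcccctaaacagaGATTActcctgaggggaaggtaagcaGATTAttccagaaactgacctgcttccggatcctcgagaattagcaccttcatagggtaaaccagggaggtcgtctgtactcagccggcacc
*Impg2*, chr16:56204063-56204362, plus strand: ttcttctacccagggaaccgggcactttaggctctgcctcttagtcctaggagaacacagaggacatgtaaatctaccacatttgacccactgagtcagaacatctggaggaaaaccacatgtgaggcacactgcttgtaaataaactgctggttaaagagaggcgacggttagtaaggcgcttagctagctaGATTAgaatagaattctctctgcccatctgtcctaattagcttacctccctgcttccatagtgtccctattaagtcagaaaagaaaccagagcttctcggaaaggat
These matches are a description of the letters, and binding was not measured in these retinas.

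Facts of the libraries that touch the results come first. *Rbpms*, the targeted gene, was at 38.4 to 43.4 TPM in +/+, 31.3 to 33.1 in Cre/+ and 19.1 to 24.2 in Cre/Cre, so its level followed the labels. TPM, a relative transcript abundance, is scaled by gene length and sums to the same total in every library. The aligned bases, read from the ratio of coverage to FPKM, ranged from 4.05 to 4.65 gigabases. Cre/Cre replicate 1 stood apart, since Rn45s, the ribosomal RNA precursor, took 9.21% of its TPM against 0.0827% to 0.336% in the other 8 libraries. *Xist* was at 2.82 TPM in Cre/+ replicate 3, at 2.08 and 3.16 in Cre/Cre replicates 1 and 3, and at 516 to 585 in the other 6, so the sexes were not balanced over the genotypes. Nothing in the labels says whether mice of a genotype shared parents or a day of dissection, and p-values measure the spread between these samples. All 36 genes of a list of other outer segment genes were detected, and their sum was 65878 to 77784 TPM.

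At P42 these 9 genes were among the most abundant transcripts of the retina. Together they held 12502 to 14549 TPM, or 1.25% to 1.45% of a library, and the lowest sum was that of Cre/Cre replicate 1. *Prph2* had the highest level. Its TPM was 4852, 5039.9 and 5258 in the +/+ libraries, 4917, 4966 and 4808 in Cre/+, and 4506, 4895 and 4929 in Cre/Cre, and its mean ranked 6 among all genes. The genotypes overlapped, and the libraries differed by 1.17 times at most. *Rom1* ranked 9, with 3943, 4286 and 4078 TPM in +/+, 3873, 4009.97 and 3807 in Cre/+, and 3426, 3867 and 3877 in Cre/Cre. The rim pair alone made up 61.2% to 64.4% of the summed level of the 9 genes.

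**Figure D1:**
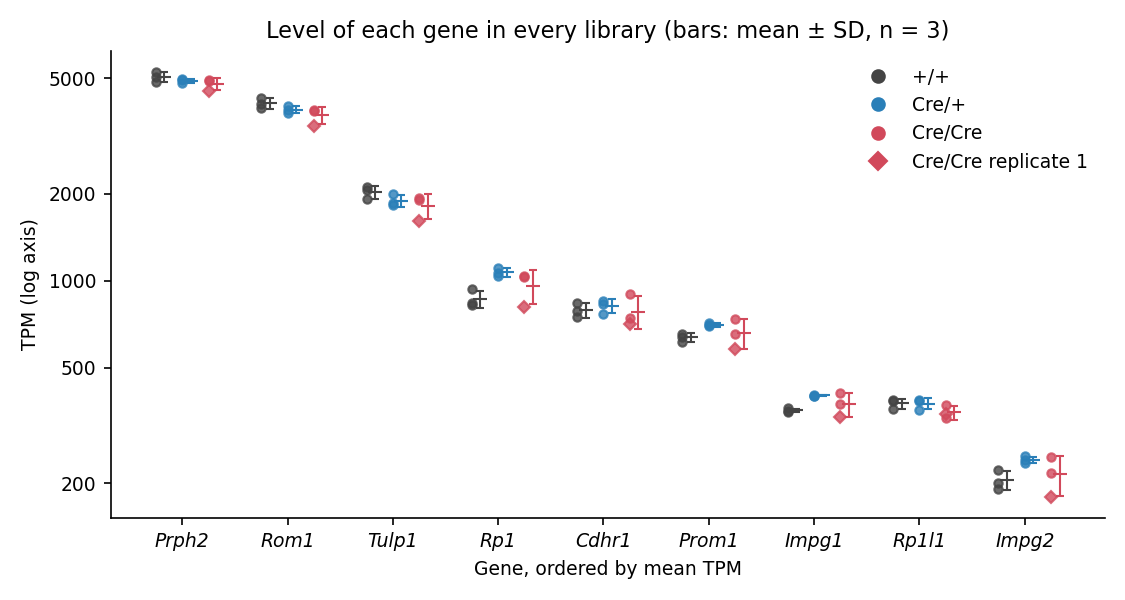
Level of each gene in TPM (log axis) in the 9 libraries, with points for libraries, bars for mean ± SD of 3 libraries, and a diamond for Cre/Cre replicate 1. Levels span from 179.7 TPM for *Impg2* to 5258 TPM for *Prph2*, and the diamond is the lowest point for 8 of the 9 genes.

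*Tulp1* came next, at rank 29, with 1611 to 2109 TPM over all libraries. *Rp1* (rank 74), *Cdhr1* (103) and *Prom1* (141) lay between 581 and 1109.9 TPM. *Impg1* (321) and *Rp1l1* (335) lay between 334 and 410.4 TPM, and *Impg2* (714) was the lowest at 179.7 to 247 TPM. *Prph2* was above *Rom1* in 9 of 9 libraries, by 1.18 to 1.32 times. Their ranges over all libraries did not overlap in TPM but did in FPKM and in coverage. In all 3 measures, ranges stood clear of each other between *Rom1* and *Tulp1*, *Tulp1* and *Rp1*, *Prom1* and *Impg1*, and *Rp1l1* and *Impg2*. *Impg1* and *Rp1l1* could not be put in order, with *Impg1* higher in 5 of 9 libraries. *Cdhr1* was above *Prom1* in 9 of 9 libraries, yet their ranges over all libraries overlapped.

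The place of *Rp1* in this order within a library depended on the measure. In TPM it was above *Cdhr1* in 8 of 9 libraries and above *Prom1* in 9 of 9, whereas by the deposited coverage, the mean number of reads over a base, it was below both in all 9. The ratio of coverage to FPKM took the value common to the library for 7 of the 9 genes. For *Prom1* it was 87.6% and for *Rp1* 53.0% of that value, on the mean over libraries. The table gives *Rp1* a span of 289 kb, while its longest coding transcript in the annotation spans 16.2 kb. Between libraries the ratio stayed between 53.0% and 53.1% for *Rp1* and varied from 87.0% to 89.2% for *Prom1*. The log2 fold change of *Prom1* in Cre/Cre against +/+ was −0.0098 in FPKM and 0.0031 in coverage per gigabase.

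The comparison of Cre/+ with +/+ asked whether 1 knock-in allele went with other levels. None of the 9 genes passed an adjusted p of 0.05 in limma, where 1 of 15198 genes (0.00658%) did. At an unadjusted p under 0.05, 3 of the 9 genes were higher in Cre/+ and 0 were lower, beside 4.9% and 5.82% of all genes tested. That count was 1 (*Rp1*) in FPKM, in coverage per gigabase, and without +/+ replicate 2, +/+ replicate 3, Cre/+ replicate 2 or Cre/+ replicate 3. In these settings 5.17% to 8.41% of all genes had such a p in either direction. The count was 4, with *Prom1* added, with only the genotypes compared, after median-ratio scaling, and without Cre/Cre replicate 1 or 3. There the share of all genes was 12.3% to 16.9%, beside 10.7% in the main fit. *Rp1*, *Impg1*, *Impg2* and *Prom1* were higher in every Cre/+ library than in any +/+ library, 4 of 9 genes beside 11.9% of all genes, and 0 of 9 were lower in this way beside 10.3%. These shares were not tested against each other, since the 9 genes were chosen with results of these data known.

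The axonemal gene *Rp1* had the largest difference of the set. Its TPM was 934, 838 and 827 in +/+ and 1109.9, 1036 and 1066 in Cre/+. The means were 866 ± 58.7 and 1070.5 ± 37.3 TPM (SD, n = 3), a difference of 23.6%. On the log2 scale Cre/+ was higher by 0.31 ± 0.09 (SE), with a 95% confidence interval of 0.11 to 0.50, an unadjusted p of 0.00402 and an adjusted p of 0.365 in limma. Its relative *Rp1l1* was at 387, 359 and 384 TPM in +/+ and at 357, 387 and 385 in Cre/+. The log2 fold change of *Rp1l1* was −0.00 ± 0.07 (SE), with an interval of −0.16 to 0.15.

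Both matrix genes were higher in Cre/+. *Impg1* was at 355, 353 and 363 TPM in +/+ and at 404, 401 and 400.01 in Cre/+, so each genotype was tight and 37.4 TPM lay between the nearest libraries. Its log2 fold change was 0.17 ± 0.08 (SE), with an unadjusted p of 0.0418 and an adjusted p of 0.449 in limma. *Impg2* was at 222, 201 and 191 TPM in +/+ and at 235, 240.3 and 247 in Cre/+. Here the log2 fold change was 0.24 ± 0.10 (SE), with an unadjusted p of 0.0309 and an adjusted p of 0.428 in limma. Neither passed the test over all genes.

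At the base of the outer segment, *Prom1* was at 657, 616 and 637 TPM in +/+ and at 703, 717 and 696 in Cre/+. Its log2 fold change was 0.15 ± 0.08 (SE), with an unadjusted p of 0.0907 in limma, although the libraries did not overlap. *Cdhr1* was at 789, 748 and 839.7 TPM in +/+ and at 769, 854 and 829.95 in Cre/+, which overlapped, with a log2 fold change of 0.05 ± 0.09 (SE). The rim genes and *Tulp1* lay on the other side of 0. Their log2 fold changes were −0.04 for *Prph2*, −0.07 for *Rom1* and −0.10 for *Tulp1*, with overlapping libraries for each. The highest limit of the 9 confidence intervals was 0.50, a fold of 1.41 (*Rp1*), and none reached the fold of 2 set in the study's methods.

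**Figure D2:**
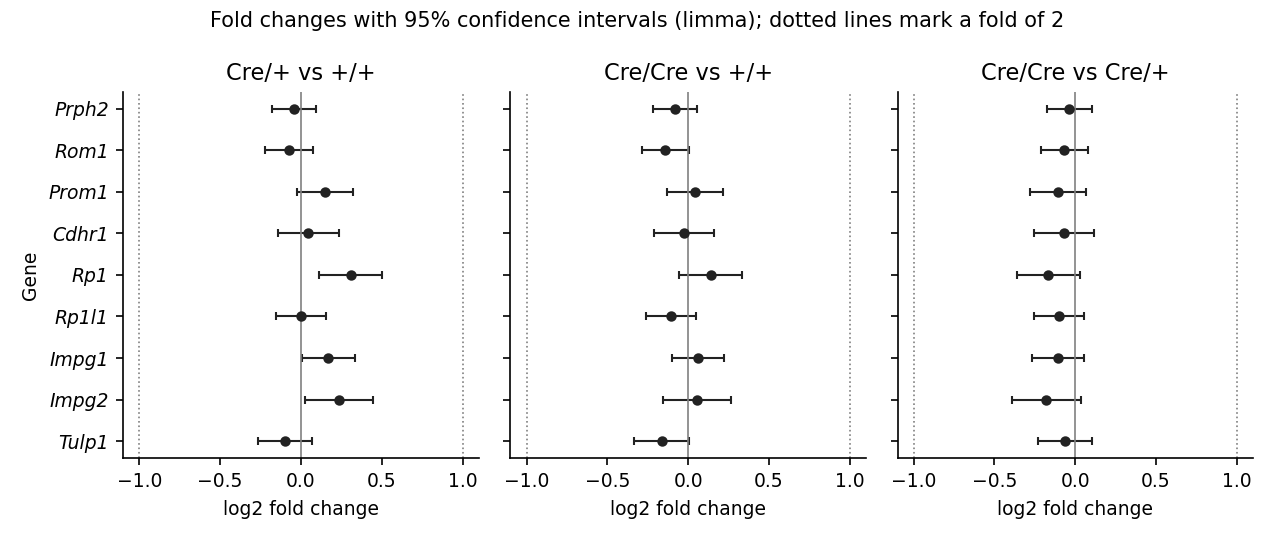
Log2 fold changes of the 9 genes in the 3 comparisons, as points with 95% confidence intervals from limma, with dotted lines at a fold of 2. The intervals of *Rp1*, *Impg1* and *Impg2* lie above 0 in Cre/+ against +/+, all others include 0, and no interval reaches a dotted line.

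The 4 genes that stood apart in Cre/+ were also those with the longest genomic spans of the set, 289 kb for *Rp1*, 152 kb for *Impg1*, 108 kb for *Prom1* and 69.4 kb for *Impg2*. The other 5 spanned 1.98 kb (*Rom1*) to 41.1 kb (*Rp1l1*). By its longest coding transcript, *Rp1* spans only 16.2 kb, less than *Cdhr1* (20.5 kb) and *Rp1l1*, and would not be among the longest. The link with span was seen after the fold changes were known. Over all genes tested, the median log2 fold change of Cre/+ against +/+ was −0.05 for the 6108 genes of up to 15 kb, 0.01 for those of 15 to 50 kb, 0.05 for those of 50 to 100 kb and 0.06 for the 2080 genes over 100 kb. The share of genes higher in every Cre/+ library was 7.04% in the shortest class and 19.0% and 15.5% in the longest 2. In single libraries, the median deviation of genes over 100 kb minus that of genes up to 15 kb was 0.02, −0.10 and −0.09 in +/+, 0.03, 0.05 and 0.10 in Cre/+, and −0.06, −0.04 and 0.06 in Cre/Cre on the log2 scale. The part of this shift in the values of the 4 genes was not tested. Their own log2 fold changes were 0.15 to 0.31. The 4 genes were singled out by lying above +/+, so their values were shown beside the class medians but not tested against them.

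**Figure D3:**
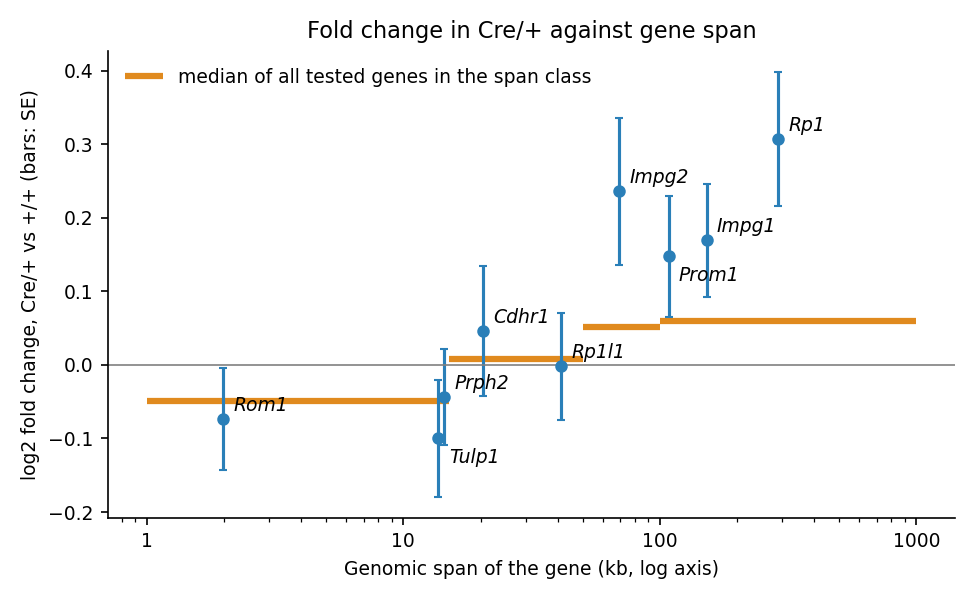
Log2 fold change of each gene in Cre/+ against +/+ (points with SE) by the genomic span of the gene in kb (log axis), with the median of all tested genes in 4 span classes as orange lines. *Impg2*, *Prom1*, *Impg1* and *Rp1* have the longest spans in the tables and the highest fold changes, although the longest coding transcript of *Rp1* spans 16.2 kb, and the class medians go from −0.05 to 0.06.

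Markers of neighbouring tissues and *Xist* were read beside these genes. The 13 markers of the pigment epithelium, which faces the interphotoreceptor matrix, were all listed and none was at 0, with sums of 102 to 140.1 TPM in +/+, 107 to 172 in Cre/+ and 94.4 to 129 in Cre/Cre. By log2 fold change against +/+, 9 of the 11 tested were above 0 and 2 below in Cre/+, with a median of 0.31. In Cre/Cre 9 were above 0 and 2 below, with a median of 0.16. With *Xist* as a covariate, the log2 fold changes in Cre/+ were 0.34 for *Rp1*, 0.24 for *Impg2*, 0.17 for *Impg1* and 0.15 for *Prom1*. Their unadjusted p in limma were 0.00221, 0.0456, 0.0534 and 0.0977, so that *Impg1* no longer had one under 0.05. The sum of 6 blood markers was lower in Cre/+, at 129.7 to 154 TPM against 164 to 252 in +/+. By log2 fold change, 3 of these markers were above 0 and 3 below. *Hbb-bt* was the 1 gene of all tested that was called in Cre/+ against +/+. Its log2 fold change was −3.54 ± 0.30 (SE), with an adjusted p of 0.00256 in limma. *Hba-a1*, *Hbb-bs* and *Hbb-bt* were listed at 0 in some libraries. The 12 lens markers, of which *Lim2* was listed at 0 in some libraries, summed to 199 to 258 TPM in +/+, 21.5 to 210.1 in Cre/+ and 99.7 to 1272 in Cre/Cre. The 10 markers of retinal ganglion cells, *Rbpms* among them, summed to 1686 to 1777 TPM in +/+, 1595 to 1664 in Cre/+ and 1227 to 1471 in Cre/Cre, without overlap between the genotypes. From the RNA of whole retinas, fewer cells of a type and less RNA per cell cannot be told apart. The study also counted RBPMS-positive and POU4F1-positive cells in whole-mount retinas, and reported no significant difference among the 3 genotypes. The part of these markers in the results for the 9 genes was not tested.

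The comparison of Cre/Cre with +/+ asked the same of 2 knock-in alleles. None of the 9 genes passed an adjusted p of 0.05 in limma, where 1 of 15198 genes (0.00658%) did, and the smallest adjusted p of the 9 was 0.728. The 1 gene called was *Rbpms*, the targeted gene, with a log2 fold change of −0.96 ± 0.10 (SE) and an adjusted p of 0.000581 in limma. At an unadjusted p under 0.05, 0 of the 9 genes were higher and 0 lower, beside 1.58% and 5.39% of all genes. Non-overlapping libraries were seen for *Rom1*, which was lower, beside 8.05% of all genes, and for 0 genes that were higher, beside 2.7%. The median log2 fold change of the 9 genes was −0.02, as was that of all genes tested.

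*Tulp1* and *Rom1* had the lowest values. *Tulp1* was at 2058, 2109 and 1909.7 TPM in +/+ and at 1611, 1928 and 1896 in Cre/Cre, with a log2 fold change of −0.16 ± 0.08 (SE) and an unadjusted p of 0.0542 in limma. *Rom1* had a log2 fold change of −0.14 ± 0.07 (SE), with an unadjusted p of 0.0585. In both genes the lowest library was Cre/Cre replicate 1, and *Tulp1* overlapped with +/+ through Cre/Cre replicate 2 alone. *Prph2* had a log2 fold change of −0.08 ± 0.06 (SE), with an interval of −0.22 to 0.06. *Rp1l1*, at 346, 334 and 373 TPM in Cre/Cre, had one of −0.10 ± 0.07 (SE).

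*Rp1* was at 809.7, 1036 and 1032 TPM in Cre/Cre, so that 2 libraries were near the level of Cre/+ and replicate 1 was below all +/+ libraries. Its log2 fold change was 0.14 ± 0.09 (SE), with an interval of −0.05 to 0.33. *Prom1* (581, 655 and 739 TPM), *Impg1* (337, 374 and 410.4) and *Impg2* (179.7, 217 and 247) had the same order of libraries, with replicate 1 lowest and replicate 3 highest, and their log2 fold changes were 0.04, 0.06 and 0.06. *Cdhr1* was at 707, 743 and 897 TPM, with a log2 fold change of −0.02 that became 0.0044 after median-ratio scaling. That of *Prom1* turned to −0.01 in FPKM.

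**Figure D4:**
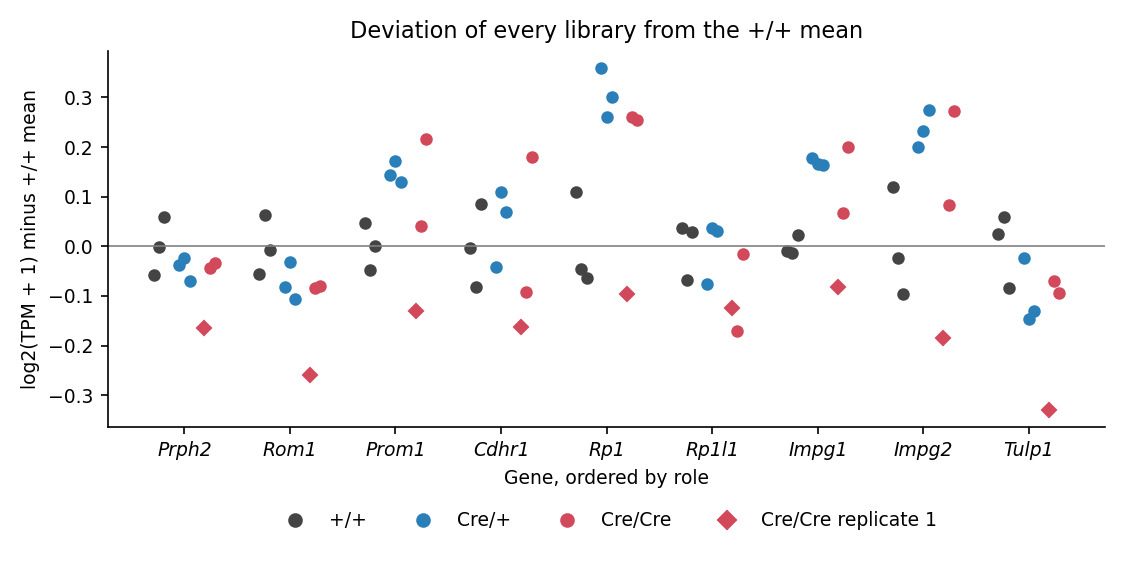
Deviation of each library from the +/+ mean on the log2(TPM + 1) scale for the 9 genes in order of role, with a diamond for Cre/Cre replicate 1. The Cre/+ points of *Prom1*, *Rp1*, *Impg1* and *Impg2* lie above all +/+ points, and the diamond lies below all +/+ points of every gene.

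Cre/Cre replicate 1 had the lowest TPM for 8 of the 9 genes, where it had the lowest for 38.6% of all genes tested. After median-ratio scaling it had the lowest for 1 of the 9 and for 12.5% of all genes. With that scaling, *Rp1* (higher) and *Tulp1* (lower) had an unadjusted p under 0.05 in Cre/Cre against +/+, beside 8.32% of all genes. *Impg1* was then higher in every Cre/Cre library than in any +/+ library, beside 6.34% of all genes. Without that library, *Rp1*, *Impg1* and *Impg2* were higher in Cre/Cre than in +/+ at an unadjusted p under 0.05. Their log2 fold changes were 0.26, 0.13 and 0.18, and 9.45% of all genes had such a p in either direction. *Rp1* and *Impg1* then did not overlap with +/+. The share of all genes without overlap was not computed for that setting, which has fewer Cre/Cre libraries, so no result was read from this. The smallest adjusted p was then 0.385 in limma. *Tulp1* came to −0.08 and *Rom1* to −0.08. *Rom1* still did not overlap with +/+, from which no result was read for the same reason.

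In Cre/Cre against Cre/+, all 9 log2 fold changes were below 0, from −0.18 (*Impg2*) to −0.04 (*Prph2*), with a median of −0.10 beside −0.03 for all genes. This was not particular to the 9 genes. In the lists described later, 34 of 36 other outer segment genes (median −0.11) and 23 of 31 cilium and transport genes (median −0.08) were below 0. So were 6 of 13 matrix and adhesion genes, 11 of 15 paralogs and 7 of 12 transcription factors. None of the 9 genes passed an adjusted p of 0.05 in limma, where 0.0132% of all genes did, and 0 of 9 had an unadjusted p under 0.05, beside 6.58%. The direction of the 9 genes was the same in TPM, FPKM, coverage and after median-ratio scaling. Without Cre/Cre replicate 1, the values of *Prph2* and *Tulp1* were above 0 and the median was −0.02. A test of any difference among the 3 genotypes called 0 of the 9 genes, beside 0.0132% of all genes. Only *Rp1* of the 9 had an unadjusted p under 0.05 there, at 0.0140 with an adjusted p of 0.519 in limma, beside 8.63% of all genes.

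Ratios between genes of a shared role do not depend on how a library is scaled. The ratio of *Rom1* to *Prph2* was 0.813 ± 0.037 (SD, n = 3) in +/+. In the knock-in retinas it was 0.796 ± 0.010 (Cre/+) and 0.779 ± 0.016 (Cre/Cre), and it stayed between 0.760 and 0.850 in all libraries. Of the 36 pairs that the 9 genes form, this pair had the second smallest SD of the log2 ratio over the 9 libraries, 0.046. The smallest was that of *Prom1* and *Impg1*, 0.033, with *Prom1* above *Impg1* by 1.72 to 1.85 times. The largest was that of *Rom1* and *Rp1*, 0.197.

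The ratio of *Rp1l1* to *Rp1* was 0.414, 0.429 and 0.465 in +/+ and 0.322, 0.373 and 0.361 in Cre/+, without overlap. In Cre/Cre it was 0.427, 0.323 and 0.361, so that replicate 1 lay within +/+ and the other 2 libraries with Cre/+. The ratio of *Impg2* to *Impg1* was 0.574 ± 0.050, 0.600 ± 0.018 and 0.571 ± 0.035 in the 3 genotypes, and overlapped between all of them. *Cdhr1* to *Prom1* was 1.24 ± 0.06, 1.16 ± 0.06 and 1.19 ± 0.05, with every Cre/+ library below every +/+ library, by 0.00853 between the nearest 2. *Tulp1* to *Prph2* was 0.402 ± 0.034, 0.386 ± 0.018 and 0.379 ± 0.019, with overlap.

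**Figure D5:**
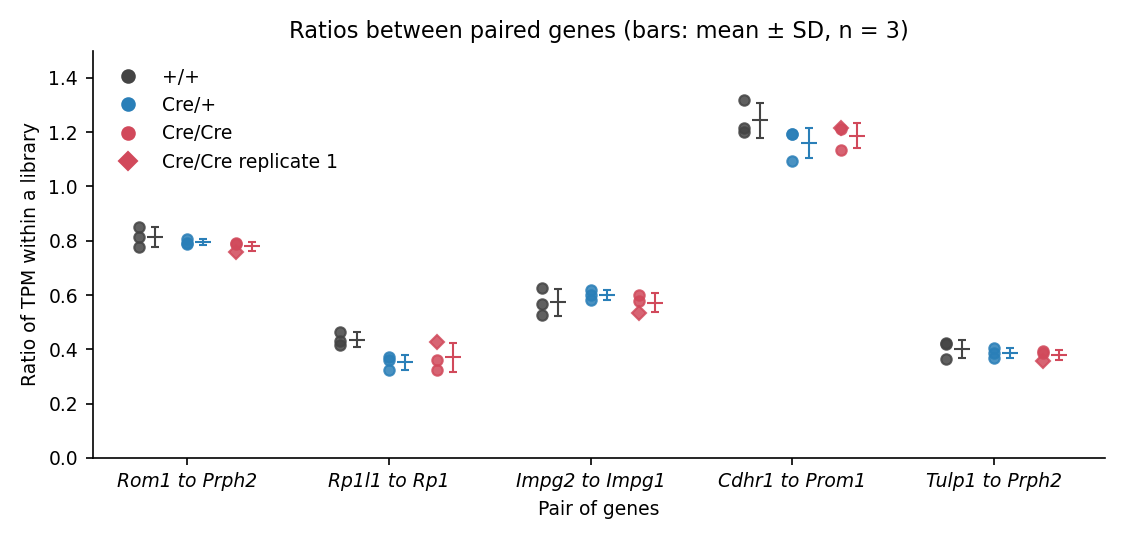
Ratio of the TPM of paired genes within each library, with points for libraries, bars for mean ± SD of 3 libraries and a diamond for Cre/Cre replicate 1. *Rom1* to *Prph2* stays between 0.760 and 0.850, and *Rp1l1* to *Rp1* is lower in the 3 Cre/+ libraries (0.322 to 0.373) than in the 3 +/+ libraries (0.414 to 0.465).

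Genes outside the set that kept the most constant ratio to the mean of the 9 genes were *Ap1ar*, *Nbr1*, *Snap91*, *Sort1* and *Rmnd5a*. *Nbr1* encodes an autophagy receptor, *Snap91* a clathrin assembly protein of synapses and *Sort1* a sorting receptor. The SD of their log2 ratio over the 9 libraries was 0.018 to 0.028, beside a median of 0.115 over the 10858 genes of at least 10 TPM. The libraries share their scaling, so that this is a description of likeness only.

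Other genes of the outer segment and of its surroundings were read from 5 lists, and none of their members passed an adjusted p of 0.05 in limma in either comparison with +/+. The shares of all genes with an unadjusted p under 0.05, beside which the counts of these lists stand, were 4.9% (raised) and 5.82% (lowered) for Cre/+. For Cre/Cre these shares were 1.58% and 5.39%. Among 36 other outer segment genes (phototransduction, discs, cone and rod), 3 were higher and 0 lower in Cre/+ at an unadjusted p under 0.05, with a median log2 fold change of 0.04. In Cre/Cre, 1 was higher and 6 were lower, with a median of −0.06. The extremes in Cre/Cre were *Gnb3*, the cone transducin beta subunit, with −0.24 ± 0.07 (SE, adjusted p = 0.543), and *Arr3*, cone arrestin, with 0.30 ± 0.08 (SE, adjusted p = 0.542).

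Of 32 genes of the photoreceptor cilium and transport, 31 were listed and tested. At an unadjusted p under 0.05, 1 was higher in Cre/+ and 0 were lower, and 0 passed in Cre/Cre, with medians of 0.06 and −0.01. Values in Cre/Cre ran from −0.13 for *Nxnl2* to 0.21 for *Poc1b*, a centriolar protein of the ciliary base. The 13 tested genes of the interphotoreceptor matrix and of adhesion had medians of 0.13 in Cre/+ and 0.09 in Cre/Cre, beside 0.00 and −0.02 for all genes. At an unadjusted p under 0.05, 2 of its genes were higher in Cre/+, 1 was higher in Cre/Cre, and 0 were lower. The link proteins *Hapln1* and *Hapln3*, both under 10 TPM, were its extremes in Cre/Cre, at −0.21 ± 0.19 and 0.45 ± 0.22 (SE).

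Of 20 paralogs of the 9 genes, 19 were listed and 15 tested, of which 0 had an unadjusted p under 0.05 in either comparison, with medians of −0.02 and −0.04. *Tspan3*, a tetraspanin, had the lowest value in Cre/Cre (−0.11) and *Tulp2*, at 1.01 TPM on the mean, the highest (0.13). Of 12 photoreceptor transcription factors, 3 were higher in Cre/+ at an unadjusted p under 0.05, 0 were lower, and 0 passed in Cre/Cre, with medians of −0.03 and −0.04. The extremes in Cre/Cre were *Esrrb*, a nuclear receptor of rods, at −0.41 ± 0.28 (SE), and *Thrb*, the thyroid hormone receptor that directs cone opsin choice, at 0.13 ± 0.09 (SE).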

How the data were processed

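RNA-Seq of whole mouse retinas gave 9 libraries, 3 per genotype, grouped by the genotype in the labels. Libraries were strand-specific and poly(A)-selected. Reads were trimmed (Trimmomatic), aligned to mm10 (HISAT2) and quantified (StringTie) by the authors, with versions and annotation not given in the sources used here. The deposited TPM sum to the same total in each library, and the deposited FPKM are scaled by gene length and depth. The deposited coverage is a signal, the mean depth over a gene's bases. Read counts are not among the columns, so the counting error of a gene is unknown, and the authors' DESeq2 test on counts was not repeated. Whether strand was used in quantification is not stated. *Prom1* is overlapped by 2 annotated genes, *Rp1* by 2 and *Impg1* by 1, none of which is listed.

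TPM were summed by gene name. Genes with a mean of at least 1 TPM were tested with limma 3.58.1 (trend, robust) in R 4.3.3 on log2(TPM + 1), which slightly understates fold changes of low genes, in 1 fit of all 9 libraries with genotype as the only term. Benjamini-Hochberg adjustment ran over all genes tested. Genes were called by the adjusted limit of 0.05 alone, and size of fold played no part in the calls. The study's fold of 2 served only as a mark beside the confidence intervals. The script was tested on simulated data. Same-numbered libraries of different genotypes did not deviate together (r of −0.12 to 0.13), so numbers were not used as pairs.

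The 9 genes and all lists were chosen with earlier results of these data known. Named genes are the 9 members, the lowest and highest value of each list in Cre/Cre against +/+, list genes past the adjusted limit, *Rbpms*, Rn45s, *Xist* and the 5 genes of most constant ratio. That rule was set for the 5 lists and not for the markers of tissues. The blood and lens markers listed at 0 were named after their values were seen, among them *Hbb-bt*, which is past the adjusted limit. Coverage per aligned gigabase was an alternative added after seeing the data. Figures were drawn with matplotlib 3.10.9.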

Additional observations from a re-analysis of the deposited data

How the results depend on the processing

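None of the 9 genes was called in any comparison under the alternatives run, namely a pseudocount of 0.1, no filter, a replicate block, only the genotypes compared, FPKM, median-ratio scaling, *Xist* as a covariate, no robust prior, coverage per gigabase (chosen after seeing the data) and each library left out in turn. With the replicate block the count of called genes among the 9 was 0 in each comparison. *Rom1* in Cre/Cre against +/+ then had an unadjusted p under 0.05, beside 6.69% of all genes. Over all genes, the calls in Cre/Cre against Cre/+ went from 2 to 1 with that block. Over all genes and alternatives, calls ranged from 0 to 6 in Cre/+ and from 1 to 7 in Cre/Cre against +/+, where 1 was called in each, from 1 to 8 in Cre/Cre against Cre/+, and from 2 to 8 among the 3 genotypes, where 2 were called. The smallest adjusted p in limma lay between 0.109 and 0.525 for Cre/+ against +/+, and between 0.160 and 0.882 with a library left out. For Cre/Cre against +/+ these ranges were 0.555 to 0.973 and 0.385 to 0.998. *Rp1* in Cre/+ against +/+ kept an unadjusted p under 0.05 under every alternative, with a log2 fold change of 0.27 to 0.36. Without Cre/Cre replicate 3, 5 of the 9 genes (*Cdhr1*, *Impg1*, *Impg2*, *Prom1* and *Rp1*) had an unadjusted p under 0.05 in Cre/Cre against Cre/+. The share of all genes with such a p was then 12.5%, beside 6.58% with all libraries. Of 486 recomputed log2 fold changes, 13 changed sign, 11 of them with a library left out. For Cre/Cre against +/+, *Prom1* came to −0.0098 in FPKM and *Cdhr1* to 0.0044 after median-ratio scaling. With each library left out in turn, the same comparison gave −0.045 to 0.129 for *Prom1*, −0.127 to 0.045 for *Cdhr1*, −0.0071 to 0.134 for *Impg1* and −0.050 to 0.178 for *Impg2*, where *Cdhr1* was above 0 without +/+ replicate 3, Cre/Cre replicate 1 or Cre/Cre replicate 2 and the other 3 below 0 without Cre/Cre replicate 3. For Cre/+ against +/+, *Rp1l1* ranged from −0.036 to 0.035, and was above 0 without +/+ replicate 1, +/+ replicate 3 or Cre/+ replicate 1. For Cre/Cre against Cre/+, *Prph2* ranged from −0.060 to 0.0047 and *Tulp1* from −0.112 to 0.018, both above 0 without Cre/Cre replicate 1. Median-ratio scaling moved the mean of *Impg1* in Cre/+ to 396.5 TPM, by more than the spread of its 3 libraries, and left the other 26 means within theirs. All log2 ratios of paired genes stayed within the spread of their libraries. Mean levels in FPKM are in another unit and were not set beside TPM. With 3 libraries per genotype and no counts, small differences in single genes could not be resolved.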
